A study of Danio rerio with 61 samples.

Results

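The nuclear genes for complexes II to V of the mitochondrial respiratory chain and for cytochrome c were measured in ventricles of 7 wild-type zebrafish strains, before and after cryo-injury. Members were chosen by gene symbol alone, namely every gene of the deposited normalized table whose symbol begins with sdha to sdhd, uqcr, cycs, cox4 to cox8 or atp5, together with cyc1. The atp5if1 genes, which code for inhibitors of the ATP synthase, were left out. This gave 54 members of the 16890 genes with deposited log2 values. They comprised 5 genes of complex II, 9 of complex III, cycsb for cytochrome c, 18 of complex IV and 17 of complex V, which makes 50 subunit or carrier genes, plus 4 sdhaf genes whose products help to assemble complex II. All 54 passed the filter on low counts. The members lie on 23 chromosomes. The other zebrafish cytochrome c gene, cycsa, had 0 reads over all libraries.

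RNA came from individual ventricles of adult fish of the strains AB, KCL, Nadia (NA), SAT, TL, TU and WIK. All strains were wild type, KCL was bred in the laboratory's own facility and the other 6 were imported. The groups were 1 or 7 days post cryo-injury (dpci), in which the tip of the ventricle was frozen with a copper probe cooled in liquid nitrogen, and uninjured hearts. There were 19 libraries at 1 dpci, 21 at 7 dpci and 21 from uninjured fish, with 3 fish per strain and stage except 2 each for SAT and TU at 1 dpci. A whole ventricle holds wound, spared muscle and blood cells together, so fewer cells of a type and less RNA per cell cannot be told apart.

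Complex II (succinate dehydrogenase) feeds electrons into the chain, complex III (cytochrome bc1) passes them to the carrier cytochrome c, complex IV (cytochrome c oxidase) hands them to oxygen, and complex V (ATP synthase) makes ATP with the proton gradient that the chain builds. Heart muscle depends on this pathway and is packed with mitochondria. Several small subunits of complex IV exist as tissue variants, or paralogs. In mammals COX6A2, COX7A1 and COX8B are the forms of heart and skeletal muscle, whereas COX6A1, COX7A2 and COX8A are found in most tissues. Fish carry further duplicates, and reads of near-identical copies can be split unevenly between them, so the balance between such copies is uncertain.

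The libraries held 2943684 to 5538019 counts each, with 49168 to 153061 counts on the members (median 77512). Levels are given in CPM, a gene's count scaled to a common library size with edgeR's TMM factors. Because only the 3′ end of each mRNA was read, a CPM does not grow with gene length. How fully the reads of each gene were captured and assigned was not tested, so levels of different genes compare only roughly. Genes encoded in the mitochondrial genome took a median of 71.0% of the counts in uninjured ventricles, 59.6% at 1 dpci and 66.3% at 7 dpci. Cardiomyocyte markers were abundant in every library, with sums over 9 genes of 22107 to 34632 CPM in uninjured hearts, 11953 to 25312 CPM at 1 dpci and 15495 to 31956 CPM at 7 dpci.

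Some library labels were in doubt. In 6 libraries the time in the label field differed from that in the title, and the title was used. One of them was SAT replicate 38 at 7 dpci, whose label field says 1 dpci. Another was uninjured SAT replicate 3, whose label field says 7 days. The profiles under the strain names NA and TU also crossed between uninjured hearts and 7 dpci. Over 1919 genes that differed among strains at 1 dpci, members left out, the profile of NA at 7 dpci relative to the mean of the 7 strains correlated at r = 0.75 with uninjured TU and at r = -0.18 with uninjured NA. For TU at 7 dpci the values were 0.74 with uninjured NA and -0.33 with uninjured TU. In the 5 other strains each name correlated best with itself, at 0.60 to 0.81. These are descriptions across genes that share libraries. The libraries are therefore called by their labels, and changes within NA or TU rest on those labels. Exchanging the names of the whole uninjured groups, each of 3 fish, would leave means over all strains unchanged. A single library under the wrong name, at any stage, could change them, and this was not tested.

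At 1 dpci the respiratory chain genes were lower as a group. Averaged over the 7 strains, 44 of the 54 members were lower at 1 dpci than in uninjured ventricles at an adjusted p below 0.05, against 12.1% of all genes tested, and 2 members were higher, against 16.2% of all genes. These calls come from edgeR's quasi-likelihood test, fitted over all 61 libraries and adjusted by the Benjamini-Hochberg method over 16890 genes. The median log2 fold change was -0.49 over the members, with or without the hardly detected sdhda, and 0.07 over all genes. The direction was shared between strains, with 30 members lower in all 7 of them. Complex III was called lower in 9 of 9 genes, complex IV in 15 of 18, complex V in 15 of 17 and complex II in 3 of 5. The median change was -0.43 in complex III, -0.51 in complex IV, -0.53 in complex V and, over the 4 genes other than sdhda, -0.40 in complex II.

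The decrease was moderate for most genes, and only 1 called member, cox6a1, changed more than 2-fold. With 1 RUVg factor, a term for unwanted variation, no member was called, beside only 0.379% of all genes. The factor was estimated from the 8445 genes that varied least for their mean level over all libraries, stages included. Of that factor's own variance 77.7% lay between the stages, so this fit cannot separate a change with stage from unwanted variation. Markers of other cells moved at the same time. At 1 dpci 8 of 9 cardiomyocyte markers were lower than in uninjured hearts (median log2 change -0.79), and 6 of 6 macrophage markers were higher (median 2.21), with summed levels of 29.2 to 429 CPM at 1 dpci against 10.5 to 140 CPM in uninjured hearts. Their part in the result was not tested.

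In complex II, sdhb, which codes for the iron-sulfur subunit, had a lowest, median and highest level of 50.8, 89.3 and 138 CPM at 1 dpci, against 100.03, 131 and 196 CPM in uninjured ventricles. The fish overlapped, yet the median of 1 dpci lay below the lowest uninjured fish. Its log2 change was -0.69 ± 0.09 (SE, adjusted p = 1.16e-08, edgeR). The flavoprotein gene sdha followed at -0.54 ± 0.10, the membrane anchor sdhdb at -0.27 ± 0.09, and the anchor sdhc at -0.21 ± 0.12 was not called. Among the assembly factors sdhaf4 (-0.60 ± 0.13) and sdhaf3 (-0.52 ± 0.13) were lower, whereas sdhaf2, which helps to attach flavin to sdha, was at -0.05 ± 0.11.

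In complex III the changes were even. They ran between -0.28 ± 0.09 for uqcrh, the hinge protein that meets cytochrome c1, and -0.48 ± 0.08 for uqcrq, a small subunit. The duplicated core proteins uqcrc2a and uqcrc2b gave -0.43 ± 0.10 and -0.44 ± 0.09, and the catalytic subunits uqcrfs1 (the Rieske protein) and cyc1 (cytochrome c1) gave -0.47 ± 0.08 and -0.29 ± 0.09. Cytochrome c itself was not called. The lowest, median and highest levels of cycsb were 328, 503 and 858 CPM in uninjured fish, 237, 503 and 977 CPM at 1 dpci and 301, 646 and 1109 CPM at 7 dpci, and its change at 1 dpci was -0.12 ± 0.11 (adjusted p = 0.52, edgeR).

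In complex V the change was near -0.5 for most genes, from the catalytic beta subunit atp5f1b at -0.47 ± 0.09 to atp5md, a small membrane subunit, at -0.66 ± 0.08, the largest decrease of this complex. For atp5f1b, the most abundant member, the lowest, median and highest levels were 753, 1292 and 2001 CPM at 1 dpci and 1257, 1794 and 2927 CPM in uninjured hearts. The genes for the rotating c-ring differed from one another in size. The change was -0.54 ± 0.07 for atp5mc3b, -0.24 ± 0.08 for its duplicate atp5mc3a and -0.20 ± 0.10 for atp5mc1, which was not called (adjusted p = 0.15, edgeR). The duplicates atp5mea and atp5meb, for subunit e, gave -0.55 ± 0.13 and -0.64 ± 0.08. The stalk subunit atp5pd was not called either, at -0.23 ± 0.13.

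Complex IV held both the largest decreases among well detected members and the only called increases. The lowest, median and highest levels of cox7a1 were 260, 459 and 873 CPM at 1 dpci against 449, 994 and 1142 CPM in uninjured hearts, and its log2 change was -0.96 ± 0.09 (adjusted p = 1.35e-12, edgeR). The duplicate cox4i1l fell by 0.99 on the log2 scale (SE 0.11, adjusted p = 1.11e-10), with 170, 305 and 557 CPM at 1 dpci against 372, 699 and 1088 CPM. The median fish at 1 dpci thus lay near the lowest uninjured fish for cox7a1 and below it for cox4i1l. Other subunits fell less, among them cox5b2 (-0.82 ± 0.11), cox6a2 (-0.70 ± 0.09), cox8b (-0.61 ± 0.10), cox4i1 (-0.56 ± 0.08), the pair cox5aa and cox5ab (both -0.50 ± 0.09), cox6b1 (-0.51 ± 0.10) and cox6b2 (-0.46 ± 0.08). The rare cox4i2, related to a mammalian subunit form known from lung and low oxygen, was at -0.72 ± 0.23.

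The increase belonged to cox6a1 (chr8:39760258-39765996, GRCz11), the counterpart of the form that mammals use in most tissues. It had 32.9, 50.8 and 92.9 CPM (lowest, median and highest of 19 fish) at 1 dpci, against 13.2, 20.97 and 31.8 CPM in 21 uninjured fish. The stages did not overlap. The log2 change was 1.40 ± 0.12, a 2.65-fold higher level (adjusted p = 6.44e-14, edgeR), and it was positive in each strain, from 0.66 in TU, where it was not called, to 1.826 in AB. The other gene that rose was cox8a (chr21:28496194-28500704), with 65.3, 103 and 177 CPM at 1 dpci against 48.1, 76.9 and 153 CPM and a change of 0.32 ± 0.10 (adjusted p = 0.010).

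**Figure D1:**
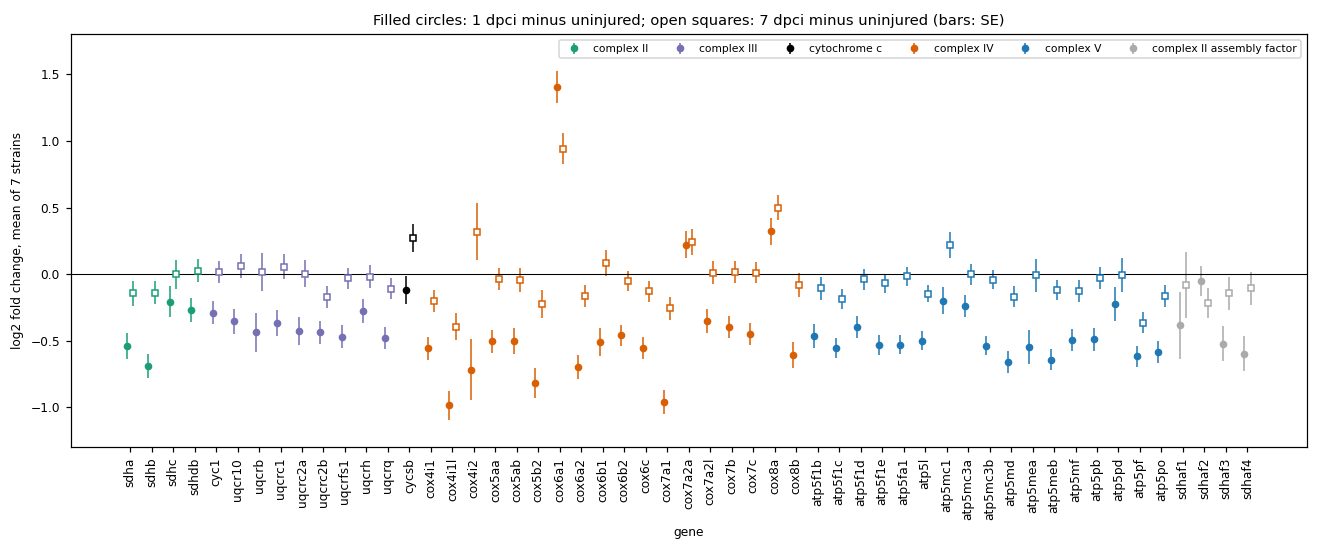
Log2 fold change of 53 members, averaged over the 7 strains (vertical axis), by gene and complex (horizontal axis), with filled circles for 1 dpci minus uninjured, open squares for 7 dpci minus uninjured and bars for the standard error. Most circles lie near -0.5 and most squares near 0, whereas cox6a1, cox8a and cox7a2a, the last without a call, lie above 0 at both times. The hardly detected sdhda, whose groups at 0 give no fold change, is left out.

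Averaged over the 7 strains, the levels returned between 1 and 7 dpci. At 7 dpci 46 members were higher than at 1 dpci, against 10.5% of all genes, and 1 member, cox6a1, was lower (-0.46 ± 0.12), against 12.4% of all genes. The median change was 0.42 over the members and -0.01 over all genes. The direction was less shared between strains than at 1 dpci, with 10 members lower in none of the 7. The mean log2 CPM over the 50 subunits changed by 0.80 in NA, 0.16 in TU and -0.18 in SAT. In the other strains it changed by 0.30 to 0.63. Complex III was again called in 9 of 9 genes, complex V in 16 of 17, complex IV in 15 of 18 and complex II in 3 of 5. The largest changes by complex were sdhb at 0.55 ± 0.09, uqcrb, a small subunit of complex III, at 0.46 ± 0.15, cox4i2 at 1.04 ± 0.22 and atp5meb at 0.53 ± 0.08 together with atp5mea at 0.54 ± 0.13. The carrier cycsb was higher too (0.39 ± 0.11). No member was called with 1 RUVg factor in the fit, as before, beside only 0.480% of all genes. At 7 dpci 6 of 9 cardiomyocyte markers were also higher than at 1 dpci (median 0.54), 5 of 5 epicardial and fibroblast markers were higher (median 1.36), and 3 of 6 macrophage markers were lower (median -1.02). Their part was not tested.

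After 7 days few members still differed from uninjured hearts. The 4 called genes (background 6.20% of all genes) were cox6a1 (0.94 ± 0.12, adjusted p = 4.16e-08, edgeR) and cox8a (0.50 ± 0.10), which were higher, and cox4i1l (-0.40 ± 0.10) and atp5pf, the coupling factor of the stalk of complex V (-0.36 ± 0.08), which were lower. In atp5pf the fish at 7 dpci had 250.0, 448 and 613 CPM (lowest, median and highest), against 403, 552 and 785 CPM in uninjured fish. The median change over the members was -0.04, beside 0.03 over all genes. A further 11 members had an unadjusted p below 0.05, 15 in all, a count that is not set beside the share of all genes. Beside these 4 genes, 5 of 5 epicardial and fibroblast markers stood above their uninjured levels at 7 dpci (median 2.17, all called), 3 of 6 macrophage markers were higher (median 1.17) and 3 of 9 cardiomyocyte markers were lower (median -0.25), and their part was not tested.

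Taken as complexes, the levels moved together. The mean log2 CPM over the genes of a complex changed at 1 dpci against uninjured hearts by -0.48 in complex II, -0.40 in complex III, -0.40 in complex IV and -0.49 in complex V, compared with a spread between fish of one group of 0.15, 0.21, 0.18 and 0.18 (SD). From 1 to 7 dpci the changes were 0.40, 0.39, 0.43 and 0.41. At 7 dpci against uninjured hearts they were -0.08, -0.02, 0.03 and -0.08. With the median over the genes in place of the mean, complex IV changed by -0.62 at 1 dpci. The means at 7 dpci average strains that went both ways. For complex IV the change against uninjured hearts was 0.75 in libraries labelled NA, -0.50 in those labelled TU and -0.29 in SAT. The values for NA and TU rest on uninjured labels that are in doubt. In uninjured hearts the mean log2 CPM of complex IV was 7.91 under the label NA and 8.44 under TU. At 7 dpci it was 8.66 under NA and 7.95 under TU.

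**Figure D2:**
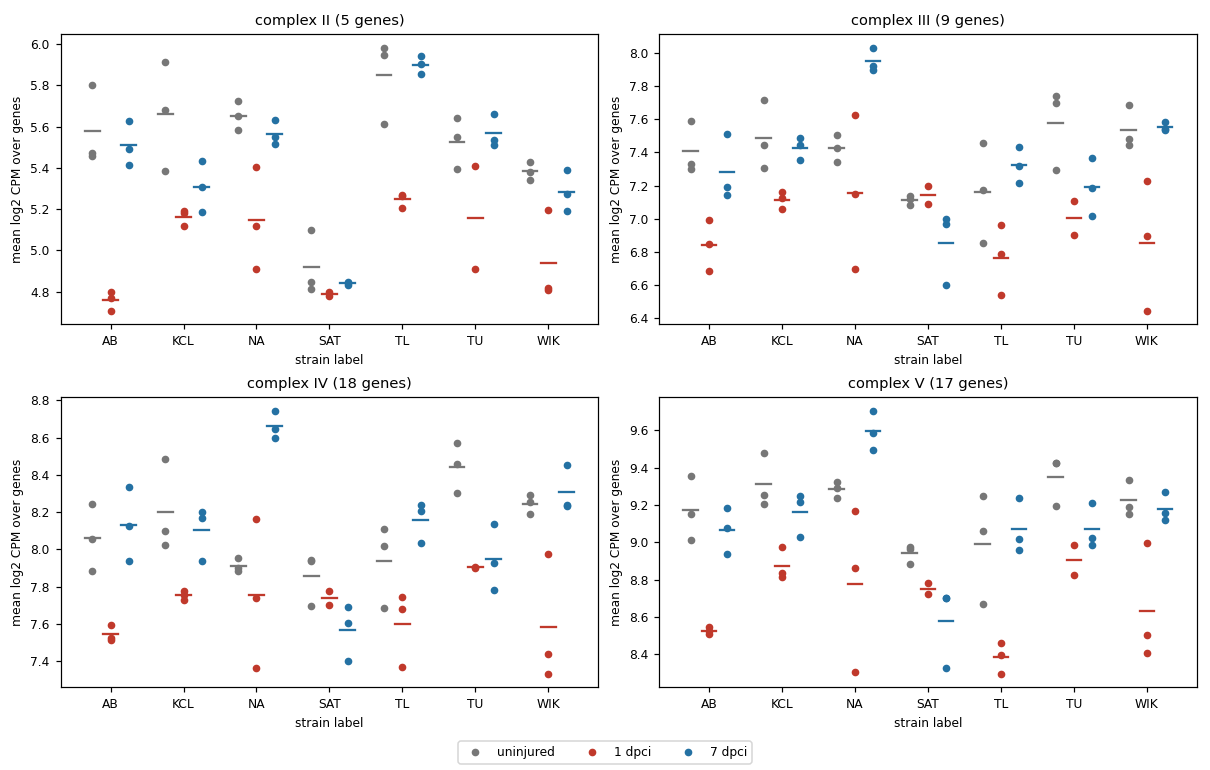
Mean log2 CPM over the genes of complexes II, III, IV and V (vertical axes, which do not start at 0) in every fish by strain label (horizontal axes), with points for fish, short lines for group means and colours for uninjured, 1 dpci and 7 dpci. In most strains the 1 dpci points are lowest, whereas in SAT the 7 dpci points of complexes III, IV and V are not above those of 1 dpci, and NA at 7 dpci holds the highest points of these 3 complexes. Complex II includes the hardly detected sdhda, whose reads differed between strains.

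The mitochondrial genome codes for partners of the same complexes. The 6 measured ones, for complexes III, IV and V, moved the same way, with 6 of 6 called lower at 1 dpci than uninjured (median -0.68), 6 of 6 higher at 7 than at 1 dpci (median 0.47) and 1, mt-co2, lower at 7 dpci than uninjured (-0.34). Of 39 listed assembly factors of these complexes 36 were measured. Of these, 15 were lower at 1 dpci than uninjured (median -0.36), beside 12.1% of all genes. From 1 to 7 dpci 10 were higher, beside 10.5% of all genes, and 1 was lower at 7 dpci than uninjured. The list includes the 4 sdhaf members, and sdhaf3 and sdhaf4 count in both the 15 and the 10. The inhibitor genes atp5if1a and atp5if1b, kept apart from the members, were lower at 1 dpci, with log2 changes of -0.50 and -0.52.

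The muscle-type forms fell at 1 dpci while cox6a1 and cox8a rose, and the paralogs were compared as log2 ratios within each fish. The 8 pairs and 3 stage contrasts gave 24 tests, each with 100000 two-sided permutations of the stage labels within strains and Benjamini-Hochberg adjustment over the 24. The smallest p that these permutations can give corresponds to an adjusted 3e-05. In uninjured ventricles the muscle-type forms prevailed. The median share of cox6a1 in the sum of cox6a1 and cox6a2 was 1.62%, that of cox7a2a in its pair with cox7a1 was 6.21%, and that of cox8a in its pair with cox8b was 9.63%.

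At 1 dpci the share of cox6a1 was 6.30%, and at 7 dpci it was 3.10%. The ratio of cox6a1 to cox6a2 was 4.21-fold higher at 1 dpci than in uninjured hearts, a log2 change of 2.07 that was positive in 7 of 7 strains (permutation test, adjusted p = 3e-05). Part of it came from the decrease of cox6a2 (chr3:31039923-31042102), which had 468, 753 and 1276 CPM at 1 dpci against 726, 1209 and 1744 CPM (lowest, median and highest). From 1 to 7 dpci the ratio changed by -0.99, and at 7 dpci it was still 1.08 above uninjured hearts on the log2 scale, again in 7 of 7 strains (permutation test, adjusted p = 3e-05).

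The pair cox7a2a (chr17:49983157-49995366) and cox7a1 (chr15:20403084-20405796) shifted in the same sense. The level of cox7a2a itself was 39.8, 65.2 and 85.8 CPM in uninjured fish, 52.9, 73.5 and 97.9 CPM at 1 dpci and 40.7, 72.8 and 132 CPM at 7 dpci, and none of its changes was called, so that the ratio moved mostly with cox7a1. The ratio was 2.29-fold higher at 1 dpci than uninjured (log2 1.197, higher in 7 of 7 strains, permutation test, adjusted p = 3e-05), changed by -0.71 from 1 to 7 dpci, and was 0.48 higher at 7 dpci than uninjured (6 of 7 strains, adjusted p = 0.00036). The gene cox7a2l, whose mammalian counterpart links complexes III and IV into supercomplexes, gained on cox7a1 by 0.62 at 1 dpci (7 of 7 strains, adjusted p = 3e-05) although it fell itself (-0.35 ± 0.09).

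The ratio of cox8a to cox8b (chr25:10499642-10503043) was 0.94 higher at 1 dpci (6 of 7 strains, permutation test, adjusted p = 3e-05) and 0.57 higher at 7 dpci (7 of 7 strains, adjusted p = 3e-05) than in uninjured hearts. Here cox8b had 296, 470 and 801 CPM at 1 dpci against 506, 734 and 1203 CPM. The median share of cox8a was 18.1% at 1 dpci and 12.9% at 7 dpci. Each of these 3 pairs therefore held a larger share of the widely expressed form after injury, most of all at 1 dpci. Cardiomyocyte and macrophage markers, and at 7 dpci epicardial and fibroblast markers, moved with it as given above, and their part was not tested.

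The cox4 genes did not follow that scheme. The ratio of cox4i1l (chr24:28231602-28245872) to cox4i1 (chr18:30507839-30510241) was 0.44 lower at 1 dpci than in uninjured hearts on the log2 scale, in 6 of 7 strains (permutation test, adjusted p = 0.00036), and changed by 0.26 from 1 to 7 dpci (adjusted p = 0.0084). The median share of cox4i1l in the pair was 46.8% in uninjured hearts, 39.4% at 1 dpci and 46.2% at 7 dpci. The rare cox4i2 made up less than 1% of its pair with cox4i1 in the median fish of each stage, and its ratio was higher at 7 dpci than at 1 dpci by 0.60 (adjusted p = 0.012) and than in uninjured hearts by 0.54 (adjusted p = 0.025; 0.44 and no call without uninjured TU replicate 2). For the duplicates cox5ab and cox5aa the ratio changed by -0.02, 0.00 and -0.01 in the 3 contrasts, and for cox6b1 and cox6b2 by -0.04, 0.19 and 0.15, with no call. The value of 0.19, for 7 against 1 dpci, passed with 0.21 to 0.25 when KCL replicate 66, NA replicate 31 or SAT replicate 40 at 7 dpci, or NA replicate 29, SAT replicate 37 or TU replicate 48 at 1 dpci, was left out.

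**Figure D3:**
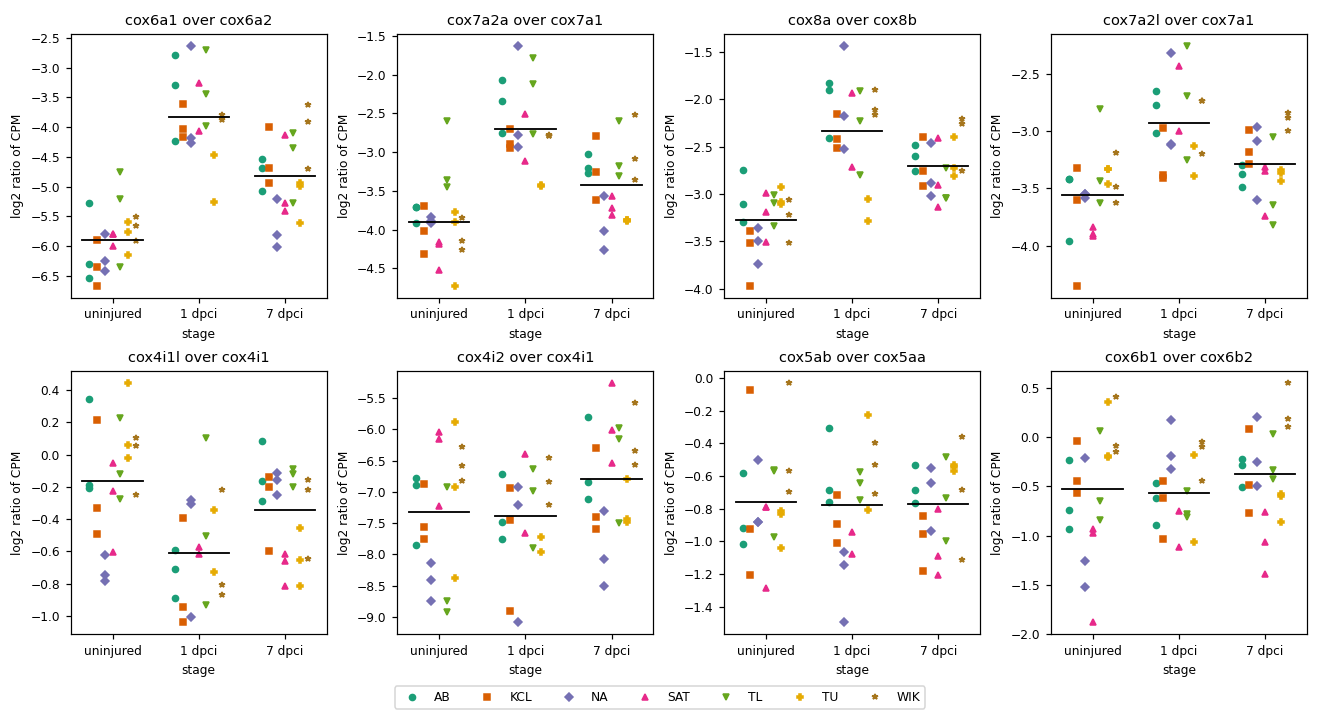
Log2 ratio of CPM of 8 paralog pairs of complex IV (vertical axes) in every fish at each stage (horizontal axes), with a colour and marker per strain and a line for the mean of the 7 strains. The first 4 pairs stand highest at 1 dpci and are lower again at 7 dpci, whereas cox4i1l over cox4i1 is lowest at 1 dpci and cox5ab over cox5aa keeps its level.

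Within single strains the calls were fewer, since each rests on 2 or 3 fish a group. At 1 dpci against uninjured hearts of the same strain, the members called lower numbered 21 for WIK (2.50% of all genes), 19 for AB (2.27%), 12 for KCL (2.13%), 10 for NA (4.51%), 6 for TL (0.965%), 4 for TU (0.290%) and 1 for SAT (0.935%). The gene in SAT was cox7a1 (-1.05 ± 0.26), and those in TU were uqcr10, uqcrfs1, cycsb and cox5b2, all by more than 1 on the log2 scale. The median member change had the same sign in each strain and ran between -0.63 in AB and -0.13 in SAT. From 1 to 7 dpci 29 members were higher in NA (2.45% of all genes), 17 in TL (1.79%), 10 in AB (1.40%), 8 in WIK (0.651%) and none in KCL (0.326%), TU (0.545%) or SAT (0.302%). In SAT the median member change over this step was -0.18, and the only call was cox6a1, at a log2 change of -1.29 ± 0.33. SAT and TU had 2 fish each at 1 dpci, which widens the error of their contrasts.

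Whether the strains differed in these changes was asked with a strain-by-stage test. For 1 dpci against uninjured hearts 3 members were called, against 1.78% of all genes, and for 7 dpci against uninjured hearts 9, against 3.52%. For 7 against 1 dpci none was called by edgeR, against 0.0947% of all genes, although 31 members had an unadjusted p below 0.05, beside 10.3% of all genes, and DESeq2 called 19, beside 4.22% of the genes it tested. When NA and TU were left out no member was called in any of these tests, but of 16356 genes only 13 were then called in all for 1 dpci against uninjured hearts, 0 for 7 against 1 dpci and 5 for 7 dpci against uninjured hearts. Single fish mattered as well. The count of 3 at 1 dpci was 0 without NA replicate 30 at 1 dpci, TU replicate 54 at 1 dpci or uninjured TU replicate 1, and it was 1 without uninjured NA replicate 2 or 4 or uninjured TU replicate 2. The count of 9 at 7 dpci was 5 without uninjured NA replicate 2. For 7 against 1 dpci 3 were called without NA replicate 30 at 1 dpci and 1 without TL replicate 43 at 1 dpci. In the libraries labelled NA, 13 members were higher at 7 dpci than uninjured (1.89% of all genes) and the hardly detected sdhda was lower, and in those labelled TU 8 were lower (1.68% of all genes).

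The difference between the strains was widest at 7 dpci, where 45 members differed among the 7 strains, against 13.5% of all genes. In uninjured hearts 12 did, against 13.1% of all genes, and at 1 dpci 7 did, against 11.4%, so that the members stood farthest above the background at 7 dpci. Among uninjured strains 7 were called without NA replicate 1. Without NA and TU, 12 members differed at 7 dpci, beside 6.21% of all genes.

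SAT ventricles at 7 dpci held the lowest mean level, and the SAT mean was the lowest before injury as well. In uninjured hearts the mean log2 CPM over the 50 subunits was 7.81 in SAT and 7.96 to 8.32 in the other strains. Single uninjured fish overlapped, with 7.72, 7.88 and 7.84 in SAT and 7.68 in TL replicate 2. This uninjured difference in means was not tested. At 7 dpci 28 of the 54 members were lower in SAT than in the mean of the other 6 strains, against 1.13% of all genes, and none was higher. They were 13 of 17 genes of complex V, 10 of 18 of complex IV, 3 of 9 of complex III, 1 of 5 of complex II and cycsb. The median change was -0.61 over the members and 0.05 over all genes. Averaged over the 50 subunits, the log2 CPM of the 3 SAT fish at 7 dpci was 7.33, 7.60 and 7.64, and that of the 2 SAT fish at 1 dpci was 7.70 and 7.71.

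The lowest of these values belongs to replicate 38, the fish with the conflicting time label. It also had the lowest summed cardiomyocyte markers (15495 CPM) and the highest summed macrophage markers (161 CPM) of the 21 fish at 7 dpci, and the lowest sum of the mitochondrially encoded partners (43915 CPM). The other SAT fish had 23421 and 20842 CPM of cardiomyocyte markers. When replicate 38 was left out, only cox6b1 and cox5ab were called among the members. The median member change was -0.48, and 50 of 54 members were below the other strains. In that fit 165 genes were called in all, in either direction, fewer than the 191 called lower alone with all fish. Without replicate 39 the count of members was 17 and without replicate 40 it was 14, and totals over all genes are not given for these fits. Fewer fish can lower the calls of any gene. The count of 28 therefore changed with single libraries, most of all with replicate 38, whereas the direction did not. Of the mitochondrially encoded partners only mt-co1 was called lower in SAT with all fish (-0.65). The others ran from -0.32 for mt-cyb to 0.32 for mt-atp8 and were not called. Over the 9 cardiomyocyte markers 2 were lower in SAT (median -0.31), 2 of 6 macrophage markers were higher (median 0.78), and 1 of 5 endothelial markers, kdrl, was higher (0.99). Their part was not tested.

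The gene that differed most was cox6b1 (chr24:39606053-39610585), which codes for a subunit facing the intermembrane space where cytochrome c docks. Its level was 162, 212 and 172 CPM in the 3 SAT fish at 7 dpci, against 317 to 1025 CPM in the 18 other fish, with no overlap. The log2 change was -1.54 ± 0.23 (adjusted p = 9.9e-06, edgeR) with all fish and -1.46 (adjusted p = 0.0013) without replicate 38. It was low before injury too, at 150, 301 and 275 CPM in uninjured SAT fish and -0.96 ± 0.22 against the other strains. The first of these 3 fish, replicate 3, also has a conflicting time label, since its label field says 7 days. The duplicate cox6b2 was -0.72 ± 0.16 in SAT at 7 dpci. Next came cox5ab (-1.04 ± 0.20) and cox4i1l, whose levels of 234, 292 and 312 CPM in SAT did not overlap with those of 350.9 to 1019.5 CPM in the other fish at 7 dpci, then cycsb (-0.95 ± 0.23) and atp5mc1 (-0.88 ± 0.21).

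Libraries labelled NA at 7 dpci held the highest levels. Of the members 37 were higher than in the other 6 strains, against 4.30% of all genes, with a median change of 0.65. They were 14 of 18 genes of complex IV, 12 of 17 of complex V, 7 of 9 of complex III, 2 of 5 of complex II, cycsb and sdhaf2. The subunit mean was 8.55, 8.50 and 8.65 in the 3 fish. Among the called members the largest increases were again in cox6b1 (1.04 ± 0.19), with 680, 1025 and 816 CPM, then cox4i1l (0.99 ± 0.19), cox6c, a small subunit of complex IV (0.94 ± 0.15), and the muscle-type cox8b (0.91 ± 0.17). Of the widely expressed forms cox8a was higher too (0.79 ± 0.18, adjusted p = 0.0035, edgeR), and cox6a1 (-0.26) and cox7a2a (0.13) were not called. Without replicate 34, 20 members were called in either direction, compared with 38 with all fish, the lower one being sdhda. Of the mitochondrially encoded partners 5 of 6 were higher in NA, 1 of 9 cardiomyocyte markers was higher (median 0.18), and 3 of 5 epicardial and fibroblast markers were lower, with sums of 299.6, 270.4 and 195 CPM, the lowest 3 of the 21 fish at 7 dpci. Their part was not tested.

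In TU at 7 dpci 2 members were lower than in the other strains, against 0.930% of all genes. They were sdhaf2 (-1.62 ± 0.27) and uqcr10, a small subunit of complex III (-0.71 ± 0.19). A single member was called when any 1 of the 3 TU fish was left out.

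**Figure D4:**
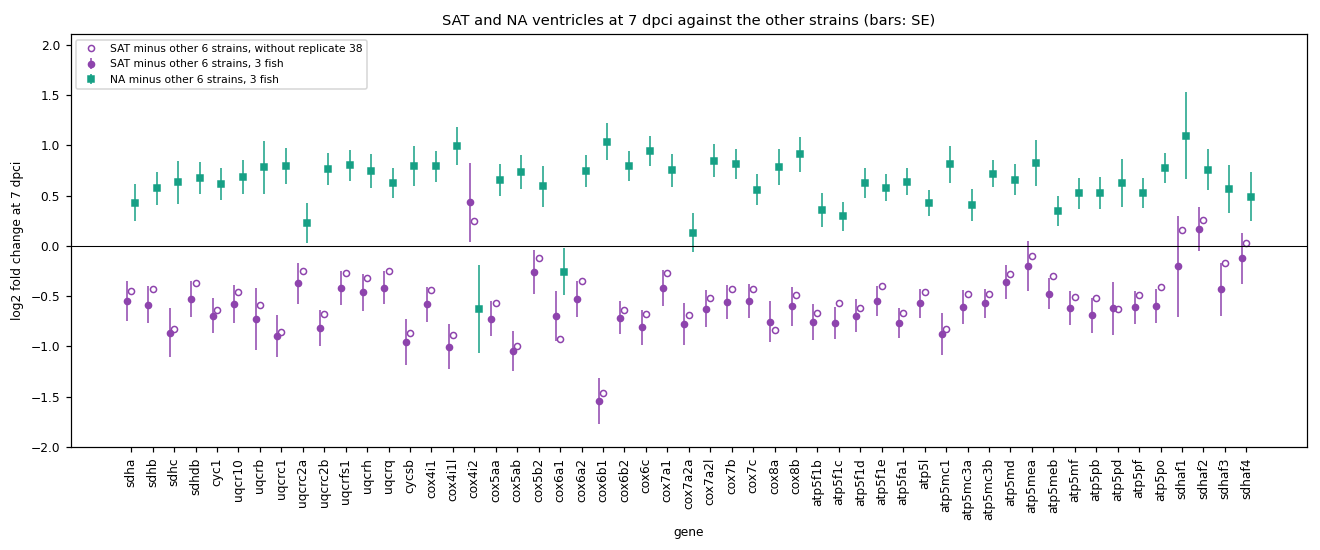
Log2 fold change at 7 dpci of SAT minus the other 6 strains (filled circles, and open circles without replicate 38) and of NA minus the other 6 strains (squares) on the vertical axis, for 53 members on the horizontal axis, with bars for the standard error of the values with all fish. SAT lies below 0 and NA above 0 for nearly all genes, with cox6b1 farthest out in SAT, and the open circles lie nearer to 0 for most genes. The hardly detected sdhda is left out.

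A few members carried strain differences of their own. The anchor gene sdhda (chr5:30081241-30088077) was barely detected, with 0 reads in 17 of 61 libraries, so its values are given as reads. TL had 12, 19 and 24 reads in uninjured fish, 12, 16 and 15 at 1 dpci and 20, 16 and 13 at 7 dpci. WIK had 0 in 8 of 9 fish and 2 in the other, and SAT had at most 5. TL thus lay above every SAT and WIK fish at each stage. Its duplicate sdhdb averaged 39.5 CPM.

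For sdhaf2 (chr7:13353080-13362590) the libraries labelled NA and TU differed in opposite senses between uninjured hearts and 7 dpci. Libraries labelled NA had 27.6, 21.3 and 18.5 CPM at 7 dpci and 8.9, 5.5 and 6.5 CPM in uninjured fish, whereas those labelled TU had 6.0, 5.0 and 5.3 CPM at 7 dpci and 21.1, 17.4 and 22.6 CPM in uninjured fish. At 1 dpci one TU fish had 17.4 CPM and the other 5.4 CPM. The means of the 5 other strains lay between 14.0 and 23.2 CPM at these stages.

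In TL the subunit e gene atp5mea (chr21:20377752-20381481) was low at 1 dpci, with 8.9, 13.6 and 56.8 CPM, whereas the means of the other strains were 111 to 190 CPM. The log2 difference of TL from the others was -2.50 ± 0.31 at 1 dpci (adjusted p = 1.4e-07, edgeR) and -1.14 ± 0.27 in uninjured hearts, where the 3 fish had 91.2, 77.9 and 92.0 CPM. At 7 dpci TL had 143, 81.0 and 89.7 CPM, and the difference of -0.82 ± 0.27 was not called. Other strain differences were seen in uninjured hearts or at 1 dpci. Some of these genes, such as cox5ab in SAT and cycsb in NA, differed at 7 dpci as well. In uninjured hearts sdhc averaged 256 ± 16.4 CPM in WIK (SD, n = 3 fish), a log2 difference of 0.98 ± 0.21 from the other strains. The core protein gene uqcrc1 averaged 91.1 ± 4.55 CPM in SAT, a difference of -0.75 ± 0.20, and uqcrc2b and cox5ab were also lower in SAT (-0.64 ± 0.18 and -0.67 ± 0.19). For cycsb the NA fish at 1 dpci had 547, 733 and 977 CPM and the TU fish 278 and 237 CPM, with differences from the other strains of 0.81 ± 0.20 and -0.99 ± 0.28. At 1 dpci uqcrb was lower in WIK (-1.32 ± 0.33), sdhb was lower in TL (-0.68 ± 0.18), and sdhaf4 was higher in TU (0.97 ± 0.28) and lower in WIK (-1.03 ± 0.29).

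**Figure D5:**
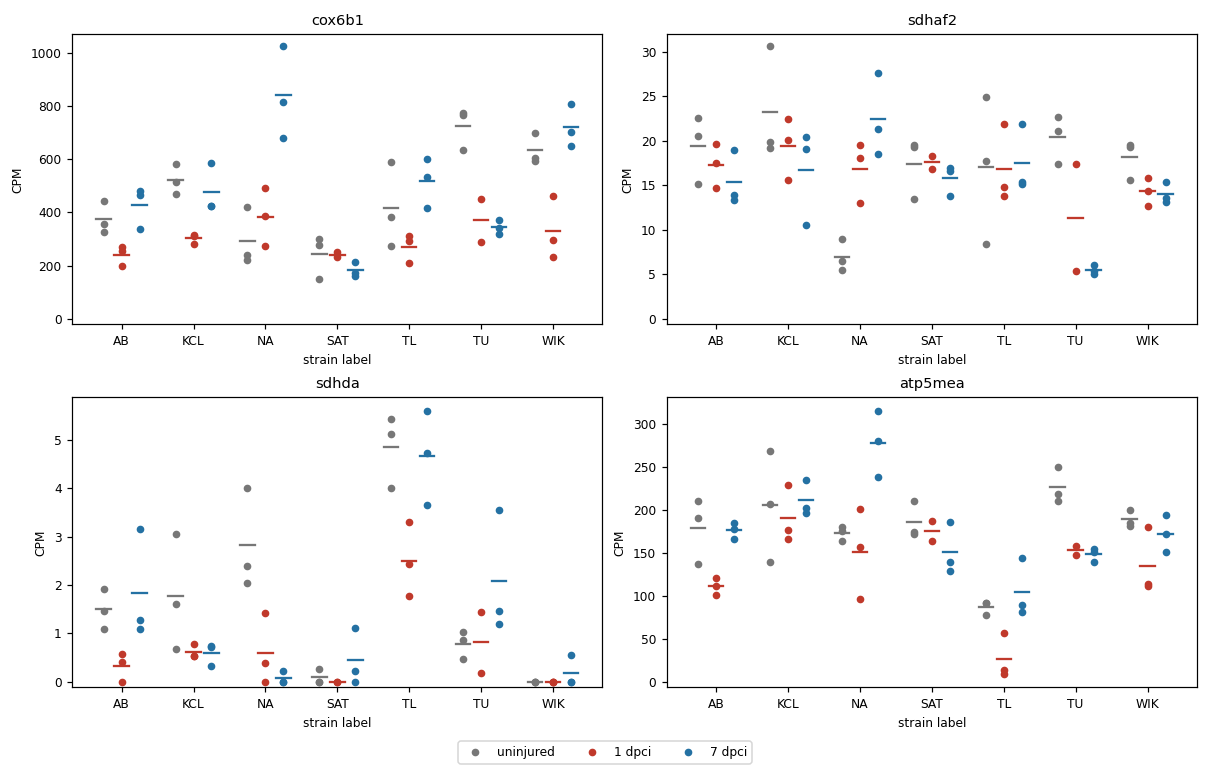
CPM of cox6b1, sdhaf2, sdhda and atp5mea (vertical axes) in every fish by strain label (horizontal axes), with points for fish, short lines for group means and colours for uninjured, 1 dpci and 7 dpci. SAT is lowest for cox6b1 at 7 dpci, sdhaf2 is low in uninjured NA and in TU at 7 dpci, sdhda is highest in TL, and atp5mea is lowest in TL.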

How the data were processed

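The authors made Lexogen QuantSeq 3′ mRNA libraries from single ventricles, used bcl2fastq 2.20.0 and Trim Galore 0.6.4, and aligned and counted reads with STAR 2.7.6a on GRCz11. They deposited unnormalized counts per gene and a table of normalized log2 values. The deposited log2 values are compressed in range, as if a logarithm had been taken of values already on a log scale. They served for membership, coordinates and 1 alternative. Strain and stage came from the titles, and separate fish were taken as replicates.

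The count tests used edgeR 4.0.16 under R 4.3.3 (genes reaching 1 CPM in 1 library or more, TMM, trended dispersion, a mean for each of 21 strain and stage groups over 61 libraries, quasi-likelihood F-test, Benjamini-Hochberg over 16890 genes, called at adjusted p below 0.05). Log2 CPM for ratios and complex means used a prior count of 2. Python 3.11.15 with numpy 2.4.6 and pandas 2.3.3 ran the permutations of single ratios, and matplotlib 3.10.9 drew the plots. No library was left out, and no 2 libraries of a group agreed within sampling noise (chi-square per degree of freedom 6.29 to 68.3 over 59 pairs). Alternatives used DESeq2 1.42.0, another scaling, filter or threshold, 1 RUVg factor, a replicate block, and fewer libraries or strains.

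The text names, per complex, the members with the largest and smallest stage changes, paralogs and duplicates, up to 12 members with strain-dependent changes and hardly detected ones. Members and lists were chosen with earlier results of these data known.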

Additional observations from a re-analysis of the deposited data

Results flagged for a closer look

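The change with injury differed among the 7 strains for 3 members between 1 dpci and uninjured hearts and for 9 between 7 dpci and uninjured hearts, by edgeR's strain-by-stage test with adjustment over all genes. No outlier test was made, since each group had 2 or 3 fish. Without the libraries labelled NA and TU no member was called, but only 13 and 5 of 16356 genes were then called in all for these tests, against 301 and 594 of 16890 with them. Whether the 2 names were confused in some libraries was not tested. Over 1919 genes NA at 7 dpci correlated at r = 0.75 with uninjured TU and at -0.18 with uninjured NA. For TU at 7 dpci the values were 0.74 with uninjured NA and -0.33 with uninjured TU. At 1 dpci the profile of NA correlated at r = 0.69 with uninjured TU and at -0.18 with uninjured NA over 2237 genes, and that of TU at 0.39 with uninjured NA and at 0.22 with uninjured TU. Between the injured stages NA at 7 dpci correlated at 0.68 with NA at 1 dpci, and TU at 7 dpci at 0.42 with TU at 1 dpci, over 2197 genes.

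At 1 dpci the changes differed for uqcr10 (adjusted p = 0.0481), the electron carrier gene cycsb (adjusted p = 0.0238) and cox8a (adjusted p = 0.0380). The log2 change of cycsb was 0.71 in NA and -1.36 in TU. That of uqcr10 was 0.50 in NA, -1.05 in TU and -0.81 in WIK.

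At 7 dpci they differed for sdhaf2 (adjusted p = 4.10e-05), cox6b1 (adjusted p = 0.000343), cox4i1l (adjusted p = 0.00230), cox8a (adjusted p = 0.00415), uqcr10 (adjusted p = 0.00993), cox6c (adjusted p = 0.0179), sdhda (adjusted p = 0.0209), cox8b (adjusted p = 0.0219) and atp5po, the subunit that ties the stalk of complex V to its head (adjusted p = 0.0425). The log2 change of cox6b1 was 1.52 in NA, -1.08 in TU and between -0.41 and 0.32 in the other strains. For sdhaf2 it was 1.68 in NA and -1.90 in TU, for cox8a 1.62 and -0.45, and for cox4i1l 1.06 and -1.23 in the same order.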

How the results depend on the processing

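Another scaling (DESeq2 size factors), mitochondrially encoded genes left out, other filters or DESeq2 kept the counts for the stage means and for NA and SAT within 1.5 times. Requiring a 2-fold change left 1 member at 1 dpci against uninjured hearts, 1 at 7 against 1 dpci, 0 at 7 dpci against uninjured, and 3 for SAT, 2 for NA and 1 for TU. These 2-fold counts are not set beside the share of all genes. One RUVg factor left 0 members at 1 dpci against uninjured (beside 0.379% of all genes) and 0 at 7 against 1 dpci (0.480%). With it the strain-by-stage tests of 1 and 7 dpci against uninjured gave 1 and 16 (0.876% and 3.06%). Of the factor's variance 77.7% lay between stages and 6.06% between strains. DESeq2 gave 19 members among uninjured strains (beside 21.6% of all genes it tested) and 7, 19 and 19 in the strain-by-stage tests of 1 dpci against uninjured, 7 against 1 dpci and 7 dpci against uninjured (beside 6.10%, 4.22% and 9.46%). Without a filter these tests gave 7, 11 and 15 (beside 5.28%, 4.04% and 6.58% of all genes). With filterByExpr the last gave 16 (6.33%), and without mitochondrially encoded genes that of 7 against 1 dpci gave 5 (0.762%). Without NA and TU the counts were 12 among strains at 7 dpci (beside 6.21% of all genes) and 17 for SAT (2.40%). They were 0 and 0 for the strain-by-stage tests against uninjured (0.0795% and 0.0306%). Without the 6 libraries with differing time labels they were 0 and 4 for those 2 tests (0.837% and 1.94%), 2 for SAT (0.837%) and 1 for TU (1.76%). Against the 5 strains other than NA, a choice made after seeing the data, SAT had 18 (2.87%). The shares in this paragraph count calls in either direction, whereas the 1.13% for SAT and 0.930% for TU above count lower calls only.

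The numbers in the titles paired nothing (median correlation of deviations 0.00893 over 33 same-numbered pairs, 0.00177 over 156 others). Uninjured libraries alone gave 5 members among strains with the replicate block (beside 9.90% of all genes) and 8 without the block (13.7%).

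Leaving out 1 fish at a time gave 45 to 46 members at 1 dpci against uninjured, 43 to 48 at 7 against 1 dpci, 4 to 5 at 7 dpci against uninjured, 20 to 39 for NA, 2 to 31 for SAT and 1 to 3 for TU. Among strains it gave 7 to 12 uninjured and 30 to 45 at 7 dpci, and for strain by stage 0 to 4, 0 to 3 and 5 to 13. Apart from the fit without SAT replicate 38, no total over all genes is set beside the counts without single fish.

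On the compressed scale of the deposited log2 values, the level of complex IV changed by -0.048 at 1 dpci against uninjured. Values near 0 crossed it, such as complex IV at 7 dpci against uninjured (0.032, and -0.079 with the median over its genes). For the paralog ratios, cox6b1 over cox6b2 at 7 against 1 dpci passed without NA and TU (0.29, adjusted p = 0.0143, permutation test), with 0.13 to 0.25 over single fish left out. At 7 dpci against uninjured, cox4i1l over cox4i1 passed without NA and TU (-0.20, adjusted p = 0.0372, permutation test), with -0.20 to -0.15, and cox4i2 over cox4i1 failed without the 6 libraries (0.41, adjusted p = 0.125, permutation test), with 0.44 to 0.63.

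With the RUVg factor the signs of 26 changes of named genes turned, none with a call. At 1 dpci against uninjured the log2 changes became 0.018 for sdhb, 0.23 for uqcrc2a, 0.051 for uqcrq, 0.41 for cox4i2, 0.071 for cox5ab, 0.13 for cox5b2, 0.12 for cox6a2, 0.26 for cox8b, 0.17 for atp5f1b, 0.10 for atp5mc3a, 0.071 for atp5md and 0.047 for sdhaf4. At 7 against 1 dpci they became -0.080 for uqcrc2a, -0.047 for uqcrq, -0.017 for cox4i1, -0.022 for cox4i1l, -0.15 for cox5b2, 0.62 for cox6a1, -0.11 for cox6a2, -0.16 for cox8b, -0.14 for atp5f1b, -0.033 for atp5mc3a, -0.082 for atp5md, -0.035 for atp5po, -0.031 for sdhaf3 and -0.0097 for sdhaf4. Apart from the variance of that factor, the causes of these differences were not tested. Depth limits sdhda, cox4i2 and the assembly factor gene sdhaf1, which average under 5 CPM.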
